A study of Homo sapiens with 6 samples.

Results

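The genes described here were 10 regulators and signals of the ATF4 branch of the integrated stress response, ATF4, ATF3, DDIT3, CEBPB, NUPR1, PPP1R15A, TRIB3, SESN2, CHAC1 and GDF15, taken by symbol from a count table of 54261 gene symbols. All 10 passed the filter on low counts, which kept 14398 genes for testing. RNA was sequenced from 786-O cells, an established line of clear cell renal cell carcinoma, after CRISPR-Cas9 with a guide RNA against PHF8 (PHF8 knockout, 3 libraries) or with a control guide RNA (control, 3 libraries). PHF8 encodes a histone demethylase. The labels give no drug, stress or time for either group. They do not give the guide sequence, do not state if the edited cells were pooled or cloned, and do not tie replicates to cultures of their own. A p-value below thus reflects library-to-library spread, possibly technical. The comparison asks how the RNA of these genes differed in cells given the PHF8 guide RNA.

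The integrated stress response starts with kinases that phosphorylate the translation factor eIF2 on its alpha subunit, each sensing a different stress, such as heme lack, double-stranded RNA, unfolded protein in the endoplasmic reticulum or lack of amino acids. Phosphorylated eIF2 lowers most protein synthesis but lets ribosomes reach the coding sequence of ATF4, so the ATF4 protein can rise with little change in its RNA. ATF4 binds DNA in pairs with other bZIP factors and turns on genes for amino acid supply, then the factors DDIT3 (CHOP) and ATF3, the feedback regulators PPP1R15A and TRIB3, and the secreted hormone GDF15. RNA levels report the last steps of this chain and say nothing directly about eIF2 phosphorylation or ATF4 protein.

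Libraries held 25632275, 25921090 and 29095133 reads in PHF8 knockout libraries 1, 2 and 3, and 21533615, 23760160 and 25055762 reads in control libraries 1, 2 and 3. Values are CPM, read counts scaled to a common library size with TMM factors, and tests are edgeR's quasi-likelihood test with Benjamini-Hochberg adjustment over all 14398 tested genes, unless another is named. "Rose" and "fell" stand for an adjusted p under 0.05. By this test 59.7% of all tested genes changed, 28.9% higher and 30.8% lower in the knockout. The split was 4158 higher and 4435 lower genes, and it was 3153 higher and 5441 lower genes when libraries were scaled by their totals alone, which moved the median log2 fold change of all genes to -0.18. PHF8 itself had 10.8, 6.74 and 12.8 CPM in the knockout libraries and 36.6, 35.1 and 32.9 CPM in the control libraries, a log2 fold change of -1.78 (SE 0.21). PHF8 RNA was thus lower in the 3 knockout libraries but was still detected in each.

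All 10 genes rose in the knockout, where 28.9% of all tested genes did, and 4 of them, GDF15, NUPR1, TRIB3 and PPP1R15A, were over 2-fold higher, where 9.20% of all tested genes were. In each of the 10 the 3 knockout libraries all lay above the 3 control libraries, as in 32.6% of tested genes. Their median log2 fold change was 0.82, against -0.01 for all tested genes. Together they took 0.117%, 0.129% and 0.117% of all reads in the knockout libraries and 0.0672%, 0.0630% and 0.0642% in the control libraries. In RNA from whole cultures, more cells expressing a gene and more RNA per cell cannot be told apart. The 10 genes and the gene lists below were chosen with earlier results of these data known. Their shares beside those of all tested genes are thus a description and not a test.

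**Figure D1:**
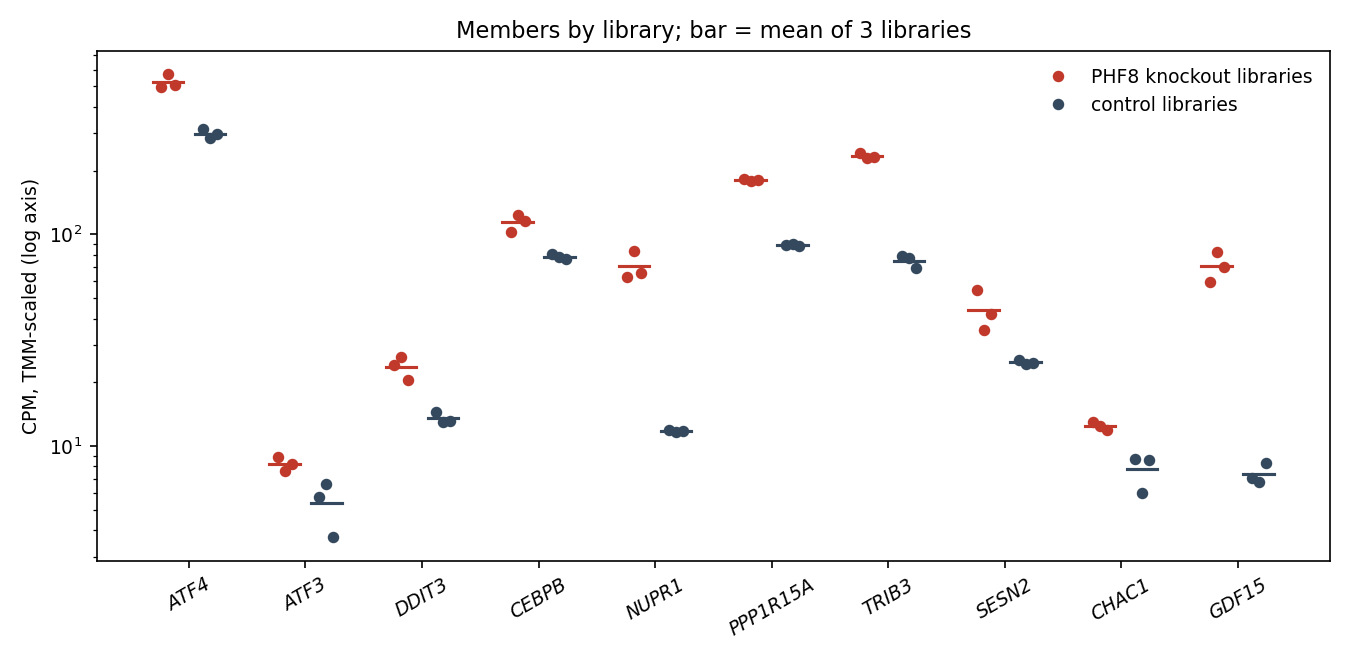
CPM (TMM-scaled, log axis) of the 10 genes in each library, with the PHF8 knockout libraries left of the control libraries and a bar at the mean of 3 libraries. The knockout points lie above the control points in all 10 genes, with the widest gaps for GDF15 and NUPR1 and the narrowest for ATF3 and CEBPB.

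ATF4 binds composite sites that join a C/EBP site to an ATF site, and the proximal promoters of 9 of the 10 genes were searched for such letters; the RefSeq table (GRCh38.p14) had 15 windows for them, each from 250 bases before to 50 bases after a transcript start, and none for NUPR1. The motif TGATGNAA, read on both strands, was found in a window of ATF3 and in that of CHAC1, and in 3.62% of all 35116 windows. The CRE, TGACGTCA, which ATF and CREB dimers bind, was found in the window of PPP1R15A and in 1.85% of all windows. Counted by gene, among 9999 tested genes with a window, TGATGNAA was found in 2.72% and the CRE in 3.72%. The matching stretches are shown because these are the only windows of the 10 genes that held either motif, with the motif in capitals and all 3 on the plus strand. The ATF3 stretch is chr1:212565157-212565333, before the first annotated exon of the gene, with its motif 191 to 184 bases before the RefSeq start. The CHAC1 stretch is chr15:40953251-40953280, with the motif on the minus strand 209 to 202 bases before the start. Its 8 letters, TTGCATCA, were in 0.866% of all windows and in 0.670% of the 9999 tested genes. The PPP1R15A stretch is chr19:48872352-48872381, with its motif 58 to 51 bases before the start. The CHAC1 and PPP1R15A motifs both lie within the first exon of a longer annotated transcript of the same gene.
ATF3: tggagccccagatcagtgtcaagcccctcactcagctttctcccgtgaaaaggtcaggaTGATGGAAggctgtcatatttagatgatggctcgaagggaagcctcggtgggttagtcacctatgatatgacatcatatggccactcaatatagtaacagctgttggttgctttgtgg
CHAC1: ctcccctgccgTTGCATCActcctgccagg
PPP1R15A: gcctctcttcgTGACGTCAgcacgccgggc
The windows of ATF4, DDIT3, CEBPB, TRIB3, SESN2 and GDF15 held neither set of letters. The 3 genes with a motif had log2 fold changes of 0.62 for ATF3, 0.67 for CHAC1 and 1.02 for PPP1R15A. Those with none in these windows had 0.54 for CEBPB, 0.81 for ATF4 and DDIT3, 0.82 for SESN2, 1.65 for TRIB3 and 3.26 for GDF15. Whether the motifs bear on these changes was not tested.

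Among the transcription factors, ATF4 itself, at chr22:39519695-39522683, rose 1.76-fold. It had 496, 572 and 505 CPM in the knockout libraries and 313, 286 and 297 CPM in the control libraries. The groups did not overlap: the lowest knockout library was well above the highest control library. The means were 524 ± 41.8 CPM in knockout and 298 ± 13.5 CPM in control libraries (SD, n = 3 each), a log2 fold change of 0.81 (SE 0.093, edgeR adjusted p 1.1e-04).

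DDIT3 (CHOP), at chr12:57516588-57521737, a C/EBP-related factor of prolonged stress, rose by nearly the same factor as ATF4. Its values were 24.1, 26.4 and 20.4 CPM in knockout and 14.5, 12.97 and 13.1 CPM in control libraries. DDIT3 had a log2 fold change of 0.81 (SE 0.13, edgeR adjusted p 8.1e-04), with means of 23.6 ± 3.0 CPM in knockout and 13.5 ± 0.87 CPM in control libraries (SD, n = 3 each). Exons of MARS1, listed in the file under its older name MARS and encoding methionyl-tRNA synthetase, cover 27.2% of DDIT3 exon bases on the other strand. Exons of MBD6 cover 4.44% on that strand. Whether reads were counted by strand is not given in the sources used here, so reads there cannot be told apart. A protein-coding gene on the same strand as DDIT3, ENSG00000285133, covers 8.03% of its exon bases, where reads cannot be told apart either. MARS averaged 242 CPM in knockout and 173 CPM in control libraries, with a log2 fold change of 0.48.

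ATF3, at chr1:212565334-212620777, a stress-induced repressor of the same family, had the least secure rise of the 10. Its values were 8.91, 7.63 and 8.23 CPM in knockout and 5.75, 6.65 and 3.70 CPM in control libraries. Control library 3 was the low one, and the gap between the lowest knockout and the highest control library was under 1 CPM. ATF3 had a log2 fold change of 0.62 (SE 0.21, edgeR adjusted p 0.0296). The adjusted p was 0.0856 with library totals alone, 0.0785 without knockout library 1, 0.0606 without knockout library 3 and 0.0804 without control library 3.

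CEBPB, at chr20:50190830-50192668, a C/EBP factor that pairs with ATF4 and has a single exon, had 102.5, 124 and 115 CPM in knockout and 80.7, 77.8 and 76.8 CPM in control libraries. Knockout library 1 was the closest to the controls. The log2 fold change was 0.54 (SE 0.10, edgeR adjusted p 0.0015), the smallest of the 10. CEBPB-AS1, an antisense RNA that covers 12.6% of CEBPB exon bases, had 38, 29 and 50 reads in knockout and 15, 14 and 26 reads in control libraries. Those counts are small beside the reads of CEBPB.

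NUPR1, at chr16:28532708-28539008, which encodes a small nuclear protein induced by stress, rose 5.98-fold. Its values were 62.7, 83.0 and 65.6 CPM in knockout and 11.9, 11.65 and 11.7 CPM in control libraries. The control libraries were almost equal, and knockout library 2 was the highest. NUPR1 had a log2 fold change of 2.58 (SE 0.13, edgeR adjusted p 4.3e-06), the 149th highest of all tested genes. A long noncoding RNA on the same strand, ENSG00000289754, covers 16.5% of NUPR1 exon bases, and reads there cannot be told apart.

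Among the feedback regulators and effectors, PPP1R15A, at chr19:48872212-48876059, the stress-induced subunit that brings protein phosphatase 1 to eIF2, was 2.03-fold higher. It had 183, 179 and 180 CPM in knockout and 88.9, 89.9 and 88.3 CPM in control libraries. Both groups were tight, with SDs of 2.25 CPM in knockout and 0.82 CPM in control libraries. The log2 fold change was 1.02 (SE 0.083, edgeR adjusted p 2.6e-05), and 0.85 with library totals alone, which is under 2-fold.

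TRIB3, at chr20:362835-397559, a pseudokinase that binds AKT and restrains ATF4 and CHOP, rose 3.13-fold. Its values were 243, 229 and 233 CPM in knockout and 78.8, 77.4 and 69.1 CPM in control libraries. No library of either group came near the other group. TRIB3 had a log2 fold change of 1.65 (SE 0.094, edgeR adjusted p 5.6e-06).

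SESN2, at chr1:28259518-28282491, encodes sestrin 2, a leucine sensor that inhibits mTORC1 by way of GATOR2. It had 54.5, 35.2 and 41.8 CPM in knockout and 25.4, 24.5 and 24.6 CPM in control libraries. The knockout libraries were spread and the control libraries nearly equal, with means of 43.8 ± 9.82 CPM in knockout and 24.8 ± 0.49 CPM in control libraries (SD, n = 3 each). The log2 fold change was 0.82 (SE 0.16, edgeR adjusted p 0.0017).

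CHAC1, at chr15:40952962-40956512, encodes a gamma-glutamylcyclotransferase that breaks down glutathione. Its values were 12.95, 12.4 and 11.8 CPM in knockout and 8.69, 6.0 and 8.59 CPM in control libraries. Control library 2 was the low one. CHAC1 had a log2 fold change of 0.67 (SE 0.17, edgeR adjusted p 0.00675).

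GDF15, at chr19:18374731-18389176, encodes a hormone of the TGF-beta superfamily that stressed cells secrete and that acts on the hindbrain receptor GFRAL to lower food intake. It showed the largest difference of the 10, 9.58-fold. Its values were 59.6, 82.05 and 69.8 CPM in knockout and 7.02, 6.73 and 8.29 CPM in control libraries. Even the lowest knockout library was several times the highest control library. The log2 fold change was 3.26 (SE 0.16, edgeR adjusted p 2.9e-06), the 75th highest of all tested genes.

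Knockout library 2 was the highest of the 3 for 5 of the genes, ATF4, DDIT3, CEBPB, NUPR1 and GDF15, and the lowest for 4, ATF3, PPP1R15A, TRIB3 and SESN2. Knockout library 1 was the highest for the other 5. The genes thus did not rank the knockout libraries in one order. Over all genes, knockout library 2 was the least like the other knockout libraries. Against the control mean, GDF15 was 8.12, 11.2 and 9.50 times as high in knockout libraries 1, 2 and 3, and NUPR1 was 5.33, 7.05 and 5.57 times as high. The other 8 genes lay between 1.31 and 3.23 times the control mean in every knockout library.

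**Figure D2:**
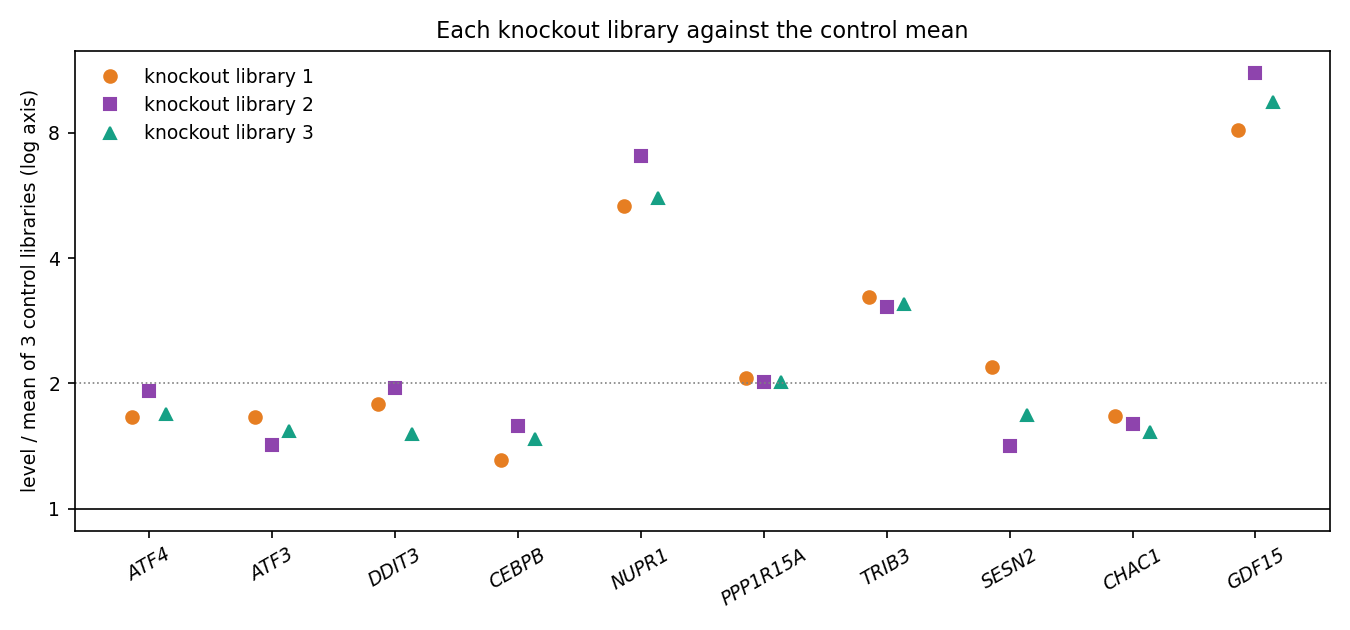
Level of each gene in PHF8 knockout libraries 1, 2 and 3 divided by the mean of the 3 control libraries (log axis); the solid line marks 1 and the dotted line 2. GDF15 (8.12 to 11.2) and NUPR1 (5.33 to 7.05) lie highest, TRIB3 lies near 3, and library 2 is above the others in some genes and below them in others.

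Fold changes across all genes moved with transcript length and GC content, which bears on these genes because most are short or GC-rich. With the tested genes split into 4 equal bins, the median log2 fold change was 0.33 in the shortest bin and -0.59 in the longest, and it was -0.63 in the bin with the lowest GC content and 0.43 in the bin with the highest. ATF4, DDIT3, CEBPB, CHAC1 and GDF15 were in the shortest bin, and PPP1R15A, TRIB3, SESN2, CEBPB, CHAC1 and GDF15 in the bin with the highest GC content. With an offset that removes both trends, 7 of the 10 still rose, where 32.0% of all tested genes rose, and their median log2 fold change was 0.47 against 0.04 for all tested genes. Over all 14398 tested genes, 4605 rose and 3880 fell with the offset. GDF15 then had a log2 fold change of 2.62, TRIB3 1.19, PPP1R15A 0.59, SESN2 0.55, DDIT3 0.38 and ATF4 0.35, each with an edgeR adjusted p under 0.05. The 3 that lost the call were ATF3, at 0.31 (adjusted p 0.212), CHAC1, at 0.11 (adjusted p 0.551), and CEBPB, whose sign turned, at -0.07 (adjusted p 0.364). NUPR1 was at 2.78 with its reference transcript of 5291 bases and at 2.00 with its shortest annotated transcript of 550 bases, a setting added after seeing the data, and it was called with both. What the trends with length and GC content come from was not tested.

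**Figure D3:**
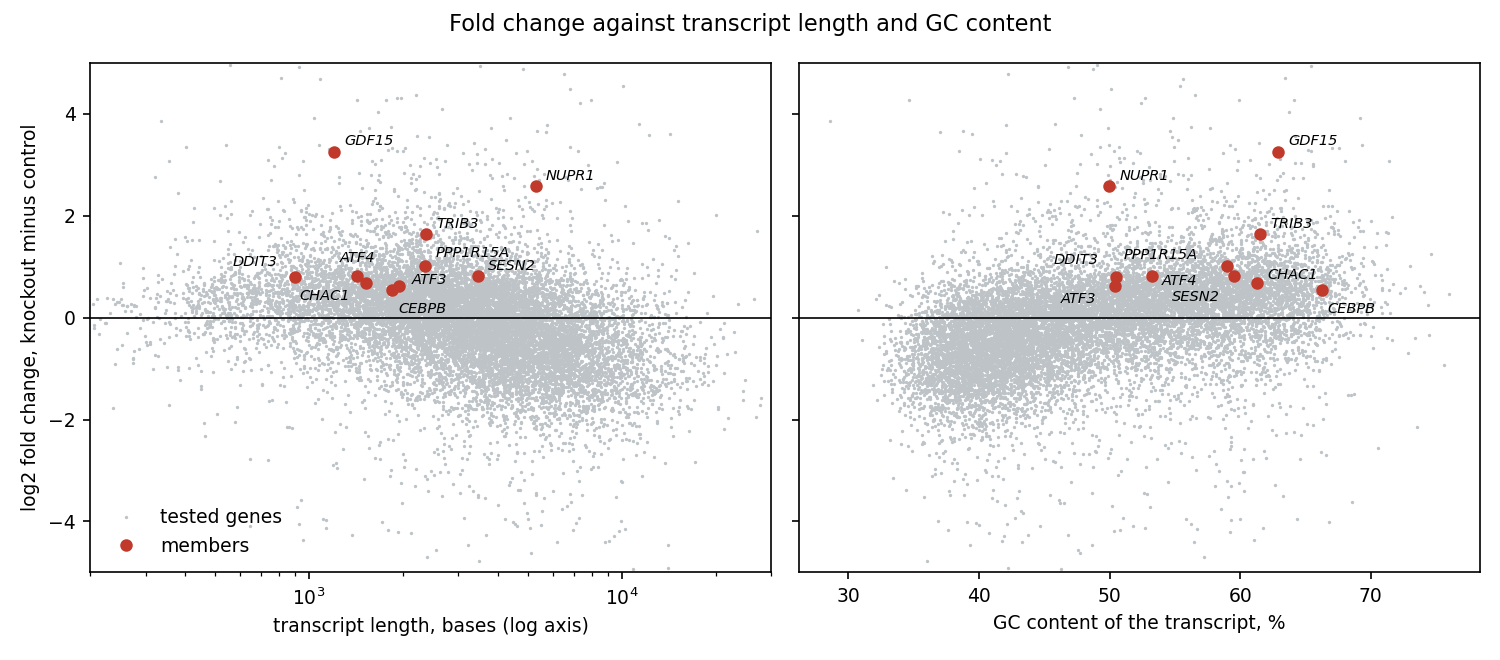
Log2 fold change (PHF8 knockout minus control) of the tested genes (grey) and the 10 genes (red) against transcript length in bases (log axis, left) and GC content of the transcript in percent (right); genes beyond the axis limits are not drawn. The grey cloud slopes down with length and up with GC content, and GDF15, NUPR1 and TRIB3 lie toward its upper edge, while CEBPB, ATF3 and CHAC1 lie inside it.

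**Figure D4:**
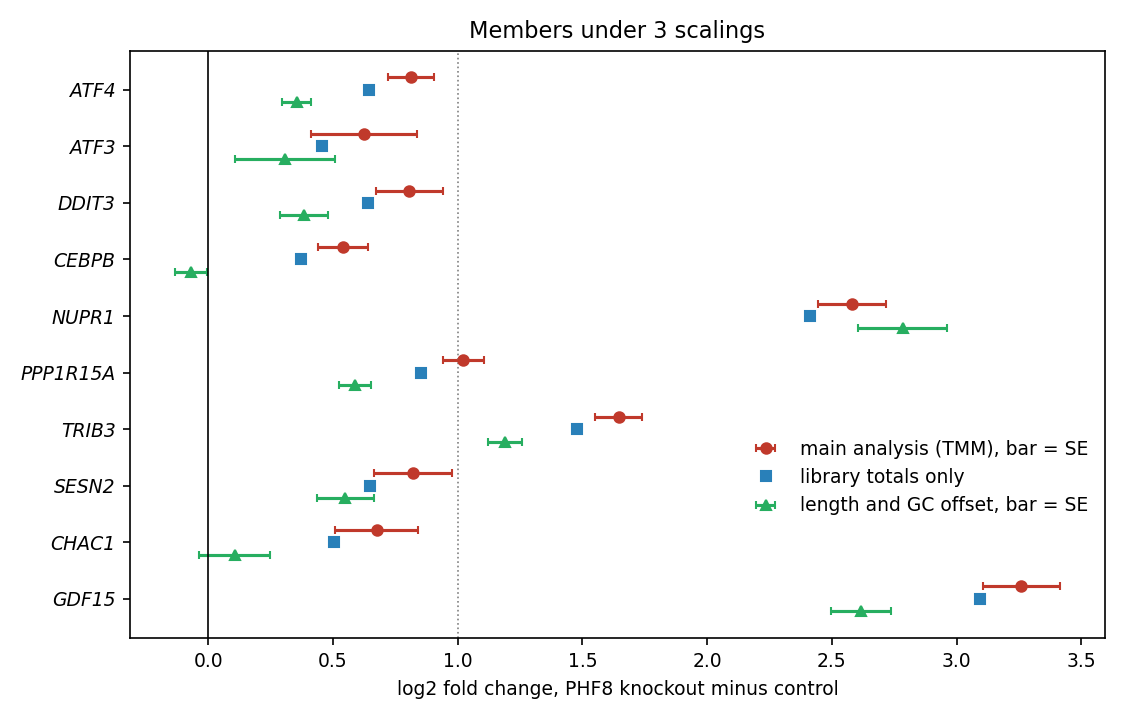
Log2 fold change (PHF8 knockout minus control) of each gene with TMM scaling (circles, bar = SE), with library totals alone (squares) and with the length and GC offset (triangles, bar = SE); the dotted line marks 2-fold. GDF15, NUPR1 and TRIB3 stay above 2-fold under all 3, and CEBPB lies at -0.07 with the offset.

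Levels between genes were compared per length, as TMM-scaled CPM divided by the kilobases of the reference transcript (RPKM). In knockout libraries ATF4 was the most abundant at 370 ± 29.4 RPKM, followed by TRIB3 at 99.7 ± 3.03, PPP1R15A at 77.0 ± 0.96, CEBPB at 62.0 ± 5.88, GDF15 at 58.7 ± 9.35 and DDIT3 at 26.2 ± 3.33 RPKM (SD, n = 3 each). CEBPB and GDF15 overlapped, and the other neighbours in that order did not. In control libraries ATF4 was also first at 210 ± 9.48 RPKM, then CEBPB at 42.6 ± 1.10, PPP1R15A at 37.9 ± 0.35, TRIB3 at 31.9 ± 2.23, DDIT3 at 15.0 ± 0.96 and SESN2 at 7.18 ± 0.14 RPKM (SD, n = 3 each), with no overlap between neighbours. GDF15 was 5th of the 10 in the knockout and 7th in the control, at 6.12 ± 0.69 RPKM, where it overlapped CHAC1 at 5.11 ± 1.0 RPKM. SESN2, CHAC1 and ATF3 were at 12.7 ± 2.84, 8.15 ± 0.37 and 4.26 ± 0.33 RPKM in the knockout, and ATF3 was at 2.76 ± 0.78 RPKM in the control. NUPR1 was at 13.3 ± 2.08 RPKM in the knockout and 2.22 ± 0.03 RPKM in the control, values that rest on the 5291-base transcript. The order below ATF4 depends on the length used. Per coding length in the knockout, NUPR1 was second at 286 RPKM, above TRIB3 at 219, CEBPB at 110, PPP1R15A at 89.4 and GDF15 at 76.3 RPKM. By the longest annotated transcript, PPP1R15A at 55.6 RPKM was below CEBPB at 62.0 RPKM in the knockout.

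The ratio of each gene to ATF4 within a library shows whether it moved more or less than ATF4. A family of 16 ratios was tested by exact two-sided permutation of the 6 libraries, in which the smallest p that 3 against 3 can give is 0.1, so none can pass 0.05. The log2 ratio of GDF15 to ATF4 was 2.36 higher in the knockout than in the control, that of NUPR1 was 1.71 higher and that of TRIB3 was 0.83 higher, and in these 3 the groups did not overlap (exact permutation p 0.1, adjusted 0.16). CEBPB to ATF4 was lower by a difference of -0.28, again without overlap. For DDIT3 the difference was -0.03, for SESN2 -0.03, both of which changed sign when 1 knockout library was left out (to 0.04 for DDIT3 without library 3 and 0.18 for SESN2 without library 2), for CHAC1 -0.15, for ATF3 -0.20 and for PPP1R15A 0.21, and in these 5 the knockout and control libraries overlapped. The ATF3 difference ran from -0.42 without control library 3 to -0.01 without control library 2, and was -0.08 without knockout library 2. The CHAC1 difference ran from -0.28 without control library 2 to -0.07 without control library 3, and was -0.09 without knockout library 2.

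Several of the genes have close relatives. PPP1R15B, the constitutive partner of protein phosphatase 1, averaged 83.1 ± 3.3 CPM in knockout and 81.6 ± 6.2 CPM in control libraries (SD, n = 3 each), with a log2 fold change of 0.03. The log2 ratio of PPP1R15A to PPP1R15B was 0.99 higher in the knockout, but with the length and GC offset PPP1R15B rose at 0.58 and PPP1R15A at 0.59, which leaves almost no difference between them. TRIB3 against TRIB2 was 1.86 higher, SESN2 against SESN1 was 1.48 higher, CHAC1 against CHAC2 was 0.75 higher and CEBPB against CEBPG was 0.31 higher, all without overlap between groups (exact permutation p 0.1, the smallest possible). With the offset the CHAC and C/EBP contrasts turned: CHAC1 was at 0.11 and CHAC2 at 0.21, and CEBPB was at -0.07 and CEBPG at 0.73. SESN2 at 0.55 and TRIB3 at 1.19 still lay above SESN1 at -0.01 and TRIB2 at -0.18. ATF4 against ATF5, its closest relative, was 0.29 higher with overlapping groups (exact permutation p 0.2), and 0.17 without knockout library 2.

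Of 18 listed relatives, 15 were tested. Of these, 3 rose (20%) and 5 fell (33.3%), against 28.9% and 30.8% of all tested genes. ATF5, FOSL1 and CEBPD rose, with log2 fold changes of 0.52, 0.59 and 0.94. With the offset ATF5 at 0.01 and FOSL1 at 0.06 lost the call, and CEBPD was at 0.27. SESN1 and SESN3, the other sestrins, fell: SESN1 averaged 3.49 CPM in knockout and 5.95 CPM in control libraries, a log2 fold change of -0.77 that was lost with the offset, at -0.01. SESN3 had 1 read over the 3 knockout libraries and 89 over the 3 control libraries, 0.980% of the control rate (exact 95% interval 0.0245% to 5.60%, counting error only). The 3 TGF-beta superfamily ligands tested in this list fell. INHBA, a subunit of activins, averaged 67.7 CPM in knockout and 148 CPM in control libraries, and TGFB2 averaged 32.4 CPM in knockout and 66.8 CPM in control libraries; their log2 fold changes of -1.13 and -1.04 were -0.28 and -0.35 with the offset. BMP4 had 3 reads in knockout and 138 in control libraries, 1.90% of the control rate (exact 95% interval 0.386% to 5.66%, counting error only). NUPR2, the only close relative of NUPR1 on the list, had 0 reads in all 6 libraries.

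Upstream of ATF4, RNA of the 4 eIF2 kinases fell in the knockout, a direction that turned for EIF2AK2 with the length and GC offset. Of 9 kinase genes and their controllers tested, 1 rose and 6 fell, where 30.8% of all tested genes fell, and their median log2 fold change was -0.43. The kinases fell as follows: EIF2AK1 (HRI, the heme and mitochondrial stress kinase) by 0.35, EIF2AK2 (PKR, the double-stranded RNA kinase) by 0.84, EIF2AK3 (PERK, the endoplasmic reticulum kinase) by 0.43 and EIF2AK4 (GCN2, the amino acid kinase) by 1.09 on the log2 scale. EIF2AK4 averaged 55.6 ± 11.3 CPM in knockout and 119 ± 4.30 CPM in control libraries (SD, n = 3 each). DNAJC3, an inhibitor of PKR and PERK, fell by 0.63, and DELE1, which carries the mitochondrial signal to HRI, rose by 0.36 in log2 units. With the length and GC offset the split became 4 higher and 1 lower. Over all 14398 tested genes it was then 4605 higher and 3880 lower. EIF2AK4 still fell with the offset, at -0.78, and EIF2AK2 rose, at 0.23. EIF2AK1, EIF2AK3 and DNAJC3 had values of -0.11, 0.00 and 0.15 that were not called. EIF2AK1 also lost its call without control library 1 or 2, EIF2AK3 without knockout library 3 or control library 2 or 3, and DELE1 without control library 2 and with library totals. Without control library 2, the counts were 0 higher and 3 lower. None of these values measures kinase activity.

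Of 13 tested genes of eIF2, its exchange factor eIF2B and its phosphatases, 4 rose (30.8%) and 3 fell (23.1%). Of all tested genes, 28.9% rose and 30.8% fell. Among the 4 was PPP1CA, a catalytic subunit of protein phosphatase 1, at 0.29. PPP1CA lost its call with library totals, and with the offset it fell, at -0.27. EIF2B1 and EIF2B2, subunits of the exchange factor that phosphorylated eIF2 blocks, rose with log2 fold changes of 0.97 and 0.85. EIF2B1 averaged 103 ± 12.5 CPM in knockout and 52.4 ± 1.1 CPM in control libraries (SD, n = 3 each). The other 3 eIF2B subunits had log2 fold changes of 0.04 to 0.18 and did not pass. With the offset EIF2B4 fell, at -0.28, and EIF2B3 and EIF2B5 were at -0.16 and -0.11 and not called. PPP1CC, a catalytic subunit of protein phosphatase 1, fell by 0.75 on the log2 scale, and EIF2A, an initiation factor unrelated to the eIF2 complex, fell by 0.78, a call that was lost with the offset, at -0.16.

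Downstream, 42 genes reported elsewhere as ATF4 targets, none of them among the 10, were tested, and 25 rose and 4 fell. These are 59.5% and 9.52%, against 28.9% and 30.8% of all tested genes, and the list's median log2 fold change was 0.55. Enzymes of amino acid synthesis were among those that rose. PYCR1, the last step of mitochondrial proline synthesis, averaged 566 ± 33.8 CPM in knockout and 127 ± 7.7 CPM in control libraries (SD, n = 3 each), a log2 fold change of 2.16. ASNS, asparagine synthetase, had a log2 fold change of 1.83, SHMT2, the mitochondrial serine enzyme, 1.32, and CBS, which starts cysteine synthesis, 1.43. Of the transporters, SLC3A2, the shared heavy chain of several amino acid exchangers, had a log2 fold change of 1.64 and its light chain SLC7A5 1.22. SQSTM1, the autophagy receptor p62, averaged 2112 CPM in knockout and 620 CPM in control libraries, a log2 fold change of 1.77.

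Not every listed target moved this way. SLC38A2, a glutamine transporter and a commonly used ATF4 target, fell to 79.4 ± 5.7 CPM in knockout libraries, against 211 ± 32.1 CPM in control libraries (SD, n = 3 each), a log2 fold change of -1.41, and it stayed lower with the offset at -0.64. XPOT, a tRNA exporter, KLHL24 and ATG5 also fell, with values of -0.43, -1.21 and -0.36. With the offset XPOT rose, at 0.39, and KLHL24 at -0.14 and ATG5 at 0.15 were not called. The ATG5 call was also lost without any one of 5 libraries, all but knockout library 2. SLC7A11, the cystine transporter that feeds glutathione synthesis, was at 0.04 and did not pass. It averaged 52.98 ± 6.18 CPM in knockout and 51.6 ± 17.3 CPM in control libraries (SD, n = 3 each). PHGDH, the first enzyme of serine synthesis, had 0 reads in each knockout library and 1 or 2 reads in each control library, while the next enzyme, PSAT1, rose with a log2 fold change of 0.56. Without knockout library 2, 8 fell. With the offset, 33 of the 42 rose and 3 fell, and SLC7A11 was at 1.22. Of all 14398 tested genes, 4605 rose and 3880 fell with the offset.

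Of 9 tested genes reported as CHOP targets, 4 rose (44.4%) and 2 fell (22.2%), against 28.9% and 30.8% of all tested genes. Their median log2 fold change was 0.20. EIF4EBP1, the translation repressor 4E-BP1, averaged 166 ± 25.5 CPM in knockout and 61.6 ± 2.81 CPM in control libraries (SD, n = 3 each), a log2 fold change of 1.43, and is also on the ATF4 list. WARS, tryptophanyl-tRNA synthetase, rose with 0.62, and BBC3 (PUMA), which promotes cell death, rose with 0.56. WARS is on the ATF4 list too, as is SLC7A1, which was not called. The BBC3 call was lost with library totals, without knockout library 1 and with the offset, which put it at -0.07, and the offset put EIF4EBP1 at 0.78. LCN2, a secreted lipocalin, had 29, 34 and 29 reads in knockout and 6, 0 and 4 reads in control libraries. The 2 that fell were ERO1A, with a log2 fold change of -0.47, and DNAJC3, also on the kinase list, with -0.63. With the offset ERO1A rose, at 0.34, and DNAJC3 was at 0.15 and not called. The counts of this list with the offset were 6 higher and 0 lower. TNFRSF10B, the death receptor DR5, and BCL2L11 (BIM) had log2 fold changes of -0.14 and 0.07 and did not pass, although BCL2L11 rose with the offset, at 0.46.

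The other arms of the unfolded protein response were mixed. Of 22 tested IRE1-XBP1 and ATF6 genes, 9 rose (40.9%) and 5 fell (22.7%), against 28.9% and 30.8% of all tested genes. Their median log2 fold change was 0.19. XBP1 averaged 341 ± 47.1 CPM in knockout and 163 ± 1.1 CPM in control libraries (SD, n = 3 each), a log2 fold change of 1.07. SEC61B, of the protein-conducting channel, and DERL1, of endoplasmic reticulum degradation, rose with 0.82 and 0.63, whereas SEL1L, of the same degradation complex, fell by 1.09 on the log2 scale. With the offset SEL1L was at -0.11 and lost the call, while SEC61B and DERL1 still rose, at 0.49 and 0.89. The chaperone HSPA5 (BiP), a usual readout of unfolded protein, was at 0.12 and did not pass, and HSP90B1 fell by 0.40. With the offset HSPA5 rose, at 0.34, and HSP90B1 was at -0.08 and not called; the HSP90B1 call was also lost without control library 2 or 3.

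Among 26 tested bZIP factors outside the 10, which include the possible partners of ATF4, 7 rose (26.9%) and 8 fell (30.8%). These shares were close to the 28.9% and 30.8% of all tested genes. CREB3, a membrane-bound factor of the secretory pathway, rose with 0.78, while CREB1 and CREB3L2 fell by 0.97 and 0.96. With the offset CREB1 was at 0.17 and not called. NFE2L2 (NRF2), the antioxidant regulator, fell by 0.85, and JUN was at 0.03, or at -0.20 and lower by the test with the offset.

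Of 11 tested genes listed as secreted signals, GDF15 aside, 6 rose (54.5%) and 1 fell (9.09%), against 28.9% and 30.8% of all tested genes. None moved by as much as GDF15, and the list's median log2 fold change was 0.35. The list includes TNFRSF10B, a death receptor rather than a secreted signal, which was not called. STC2 (stanniocalcin 2) averaged 333 ± 26.4 CPM in knockout and 178 ± 5.3 CPM in control libraries, and ANGPTL4, an inhibitor of lipoprotein lipase, 485 ± 54.3 CPM in knockout and 246 ± 6.4 CPM in control libraries (SD, n = 3 each). VEGFA rose with a log2 fold change of 0.55, METRNL with 1.04 and IL6 with 0.35. With the offset METRNL was at 0.43, and IL6 lost its call with library totals, with the replicate block and without control library 1 or 2. FGF21, the other stress hormone usually named with GDF15, had 0 reads in all 6 libraries, which allows up to 0.0372 CPM over the knockout and 0.0426 CPM over the control libraries, counting error only. ADM2 fell and INHBE rose, both at under 3 CPM in either group, and the INHBE call was lost with the offset and without knockout library 1.

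GFRAL also had 0 reads, with the same limits, and its co-receptor RET at most 2 reads in any library. Of the proteases listed around GDF15 maturation, FURIN, the broad convertase, averaged 32.9 ± 8.92 CPM in knockout and 52.9 ± 3.35 CPM in control libraries, and PCSK5 15.8 ± 3.04 CPM in knockout and 3.43 ± 0.25 CPM in control libraries (SD, n = 3 each). FURIN fell by 0.68 and PCSK5 rose with a log2 fold change of 2.20. PCSK6 also rose, with 1.09 CPM in knockout and 0.0902 CPM in control libraries. MMP14, a membrane metalloprotease, was at 770 CPM in knockout and 638 CPM in control libraries, a log2 fold change of 0.27 whose call was lost under most alternatives, among them the offset, at 0.05. The RNA says nothing of how much GDF15 was cleaved or released.

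Around SESN2, 10 of 25 tested genes of mTORC1 control rose (40%) and 4 fell (16%), against 28.9% and 30.8% of all tested genes. Their median log2 fold change was 0.29. SEC13, a subunit of GATOR2, the complex that sestrins bind, averaged 447 ± 23.6 CPM in knockout and 146 ± 8.1 CPM in control libraries (SD, n = 3 each), and WDR24 of the same complex had a log2 fold change of 1.30. MIOS, also of GATOR2, fell by 1.07, and WDR59 fell by 0.36, so the subunits of that complex did not move together. With the offset MIOS was at -0.33 and WDR59 at -0.11, which was not called; WDR59 also lost its call without knockout library 3 and without any 1 control library. CASTOR2, listed under the older symbol GATSL2 and related to the arginine sensor CASTOR1, averaged 1.28 CPM in knockout and 8.48 CPM in control libraries. MLST8, a core subunit of mTORC1, rose with 1.25, and with the offset at 0.66.

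Around CHAC1, 4 of 11 tested glutathione genes rose (36.4%) and 1 fell (9.09%), against 28.9% and 30.8% of all tested genes. Their median log2 fold change was -0.05. GCLM, the regulatory subunit of the first synthetic enzyme, rose with 0.65, GGT1, which splits glutathione outside the cell, with 1.5, and GPX4, which reduces lipid peroxides, with 1.23. With the offset GCLM was at 1.41 and GPX4 at 0.59. OPLAH, which recovers glutamate from the product that CHAC1 makes, averaged 0.298 CPM in knockout and 1.98 CPM in control libraries. CHAC2, the constitutive relative, was at -0.07 and did not pass.

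Of 7 tested partners of TRIB3, 0 rose and 1 fell by edgeR's test, with 1 gene, ACACB, higher at an unadjusted p under 0.05. Of all tested genes, 28.9% rose and 30.8% fell by that test. DESeq2 counted 1 higher and 1 lower among the TRIB3 partners. PPARG, a lipid regulator that TRIB3 binds, averaged 17.7 ± 0.86 CPM in knockout and 38.5 ± 2.34 CPM in control libraries (SD, n = 3 each), a log2 fold change of -1.12. AKT1 and AKT2 were at -0.11 and 0.30 and did not pass. With the offset AKT1 fell, at -0.47, AKT2 rose, at 0.28, and ACACB rose, at 0.88.

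ATF3 and PPP1R15A are also induced by growth signals, so the immediate early genes were read beside them. Of 14 tested immediate early genes, 7 rose (50%) and 3 fell (21.4%), against 28.9% and 30.8% of all tested genes. Their median was 0.33, and 4 rose and 6 fell with the offset. EGR1 averaged 2.64 ± 1.05 CPM in knockout and 14.1 ± 2.62 CPM in control libraries, and EGR2 3.48 ± 0.42 CPM in knockout and 0.587 ± 0.19 CPM in control libraries (SD, n = 3 each). EGR1 fell by 2.42 and EGR2 rose with 2.55 on the log2 scale, and MYC rose with 0.72.

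**Figure D5:**
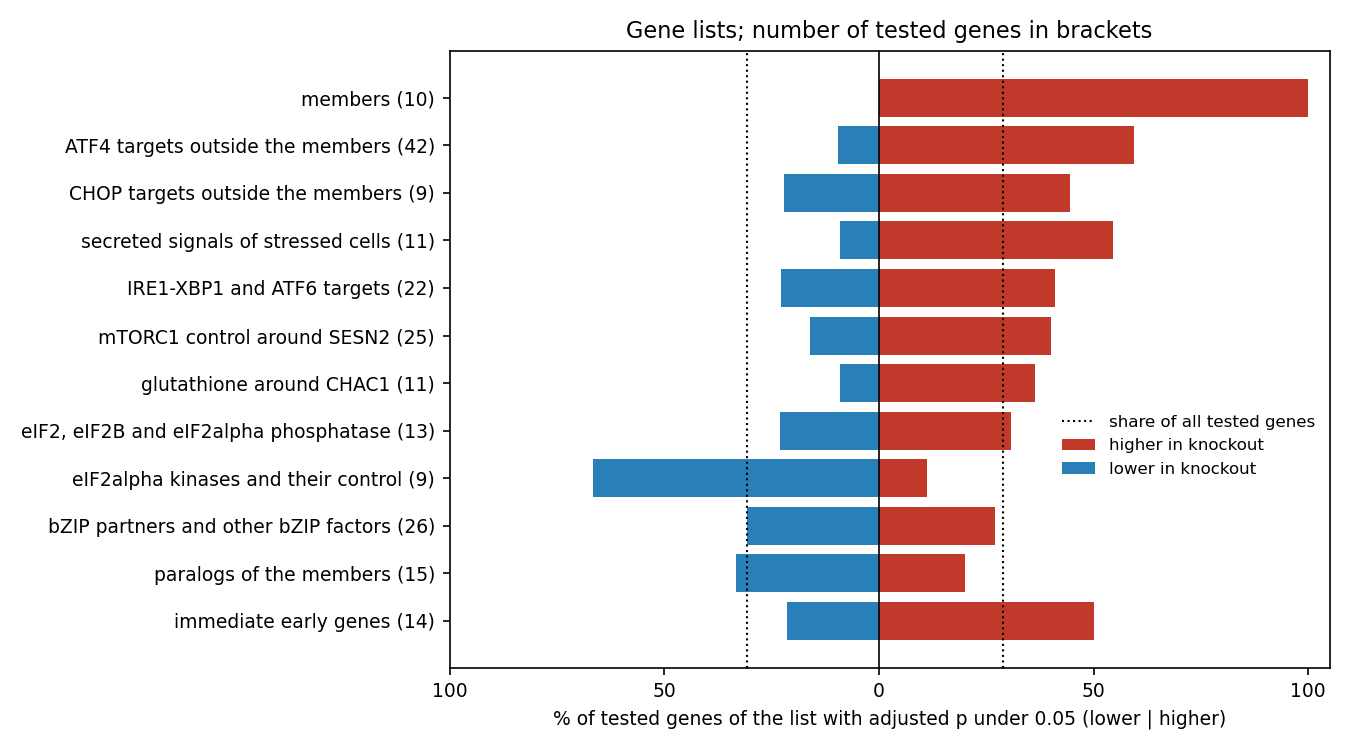
Share of each list's tested genes that rose (right, red) or fell (left, blue) in the PHF8 knockout at an edgeR adjusted p under 0.05; dotted lines mark 28.9% higher and 30.8% lower, the shares of all tested genes. The 10 genes reach 100% higher and the ATF4 targets 59.5%, and the eIF2 kinase list reaches 66.7% lower.

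The labelled cell type was checked by its markers. Of 8 tested renal carcinoma markers, 3 rose and 1 fell, against 28.9% and 30.8% of all tested genes. The marker that fell, by over 2-fold, is not among those named here. PAX8, the renal lineage factor, averaged 363 CPM in knockout and 223 CPM in control libraries, the epithelial keratin KRT18 averaged 326 CPM in knockout and 259 CPM in control libraries, and EPAS1 (HIF-2 alpha) was at 124 CPM in knockout and 123 CPM in control libraries. CA9 was at 0.609 CPM in knockout and 0.617 CPM in control libraries and NDUFA4L2 at 0.514 CPM in knockout and 0.108 CPM in control libraries, so these 2 markers of clear cell tumours were near 0. Of other cell types, PTPRC, CD3E, LYZ and CDH5 had 0 reads in all 6 libraries, again with those limits. CD68, a lysosomal protein and the only leukocyte marker tested, rose with a log2 fold change of 1.38. The 5 endothelial markers summed to 2.96 to 4.52 CPM in knockout and 2.05 to 2.32 CPM in control libraries, and the 6 fibroblast markers to 0.726 to 1.58 CPM in knockout and 3.95 to 4.12 CPM in control libraries.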

How the data were processed

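RNA-seq libraries of 786-O cells with a PHF8 guide RNA (3) and a control guide RNA (3) were analysed. The authors deposited raw, unnormalized counts of reads for each gene symbol. Per the labels' protocols and series design text, total RNA was extracted with Trizol, and reads were mapped with HISAT2 and counted with HTSeq. HISAT2 2.0.4 and GRCh38 are named in the submitters' processing notes. Sources used here give neither the strand setting nor the annotation release. From the counts, edgeR 4.0.16 (limma 3.58.1, R 4.3.3) fitted the quasi-likelihood model with group as the only term, TMM factors (0.936 to 0.957 in knockout and 1.05 to 1.07 in control libraries) and filterByExpr, with Benjamini-Hochberg adjustment over 14398 genes. A prior count of 0.125 entered the fold changes and a pseudocount of 0.5 CPM the within-library ratios. Each SE was taken as the absolute log2 fold change over the square root of F.

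The 10 genes, the gene lists and the rule for naming list genes (up to 4 called genes of each list with the smallest p) were chosen with earlier results of these data known; other list genes are named for their role. Some list genes are not reported here. Lengths, GC content and coordinates come from GENCODE v44 (GRCh38), matched by symbol, and promoter windows from RefSeq (GRCh38.p14). Of the 54261 symbols, 34408 matched directly and 1580 by an older name, and 92.3% of tested genes had a length and GC content; the others got no trend correction in the offset, a lowess fit of span 0.3 in each library. Alternatives were DESeq2 1.42.0, limma-voom, median-of-ratios factors, library totals alone, no filter, a filter that asks for over 1 CPM throughout either group, the length and GC offset, a replicate block and leaving out each library. Libraries of one group were compared for duplicates, and chi-square over its degrees of freedom ran from 2.95 to 68.1, above sampling noise. It was 68.1 between knockout libraries 1 and 2, 52.7 between 2 and 3, and 10.2 between 1 and 3. Knockout library 2 thus stood apart from the others, and without it 4647 genes rose and 4895 fell. The fit was tested on simulated counts, where it recovered 16.4% of genes changed 1.5-fold, 68.7% changed 2-fold and 92.4% changed 4-fold. That simulation gave 122 calls, against 8593 in the data, so these shares may not carry over. A gene that did not pass is thus not shown to be unchanged. Intervals cover counting error only.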

Additional observations from a re-analysis of the deposited data

How the results depend on the processing

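For the 10 genes, 134 of 141 alternative values kept direction and call. ATF3 lost its call under 5 alternatives, CHAC1 and CEBPB theirs with the length and GC offset, and CEBPB turned to -0.071. Of all 14398 tested genes, 4605 rose and 3880 fell with the offset, and 3153 rose and 5441 fell with library totals. By DESeq2 4102 rose and 4292 fell, and without the filter 4346 rose and 4917 fell of 25814 genes. Over the gene lists, the count that rose became, with the offset, 4 for the eIF2 kinases, 2 for TRIB3 partners and 4 for immediate early genes, and the count that fell became 1 for the kinases, 0 for CHOP targets, 2 for GDF15 maturation, 3 for glutathione genes, 3 for TRIB3 partners, 6 for immediate early genes and 3 for renal markers. With the offset EIF2AK2 turned to 0.23, DNAJC3 to 0.15, CREB1 to 0.17 and KRT18 to -0.21. Of genes named for their role, XPOT turned to 0.39, ERO1A to 0.34, ATG5 to 0.15, BBC3 to -0.07 and PPP1CA to -0.27. With library totals, 0 kinases, 2 eIF2 genes and 4 IRE1-XBP1 and ATF6 genes rose, and 8 ATF4 targets, 2 GDF15 maturation genes and 2 glutathione genes fell. Without the filter, 2 glutathione genes fell and 1 TRIB3 partner rose. By DESeq2, 1 TRIB3 partner rose.

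No label says that the replicate numbers pair the libraries. Deviations from the group mean correlated at 0.020, -0.044 and 0.011 between same-numbered libraries, and at -0.046 to 0.032 between the others. These values show no sign of pairing but cannot exclude it. With the replicate block 3895 genes rose and 4413 fell, 10 of the 10 genes rose, and 1 TRIB3 partner rose.

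With each library left out in turn, 0 to 2 kinase genes rose (2 without knockout library 2, 0 without control library 2) and 3 to 6 fell (3 without control library 2). Over all tested genes, 3586 to 4647 rose and 3584 to 4895 fell in these fits. ATF4 targets that fell ran from 3 to 8 (8 without knockout library 2), IRE1-XBP1 and ATF6 genes that fell from 3 to 5 (3 without control library 2 or 3), and glutathione genes that fell from 1 to 2 (2 without knockout library 1 or 2). TRIB3 partners that rose ran from 0 to 2 (2 without knockout library 2) and those that fell from 1 to 2 (2 without knockout library 1), and renal markers that rose from 3 to 5 (5 without knockout library 3). The log2 ratio of DDIT3 to ATF4 ran from -0.089 to 0.042 and that of SESN2 to ATF4 from -0.23 to 0.18, so neither had a settled sign.

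ATF3 and CHAC1 had 99 to 322 reads per library and the largest SEs of the 10 genes. The cause of these changes was not tested.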

Other observations

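Among genes averaging 5 CPM or more, the profiles across the 6 libraries nearest to those of GDF15 and DDIT3 were looked up, by the root mean square difference of centred log2 CPM over 10305 genes. Nearest to GDF15 were MT1X, a metallothionein, PDZK1IP1, a small membrane protein, CCL2, a chemokine, CLDN4, a tight junction protein, and AKR1B10, an aldo-keto reductase. MT1X averaged 174 ± 44.9 CPM in knockout and 17.0 ± 0.88 CPM in control libraries, and CCL2 averaged 15.2 ± 2.26 CPM in knockout and 1.77 ± 0.11 CPM in control libraries (SD, n = 3 each). Nearest to DDIT3 were GSTO1, a glutathione transferase, ETFB, of mitochondrial electron transfer, DFNA5, ANXA5 and F12. GSTO1 averaged 292 ± 35.7 CPM in knockout and 167 ± 9.34 CPM in control libraries. These genes were chosen for their likeness, so their levels are a description with no test.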
